A study of Homo sapiens with 8 samples.

Results

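PHGDH, PSAT1, PSPH, SHMT2, MTHFD2, ALDH1L2, ASNS, CTH, CBS and PYCR1 encode enzymes that make serine, serine-derived folate units, asparagine, cysteine and proline. These 10 genes were taken by name and not by a cut on their values, but with earlier results of these data known. All 10 were listed in all 8 RNA-seq libraries, among 34164 genes listed in at least 1 of the 2 deposited expression tables and 26360 listed in both. The libraries came from Kyse510, an established line of human esophageal squamous cell carcinoma, with 1 library per condition. In the inhibitor table, cells received DMSO vehicle, SP2509 at 7 µM, UNC0642 at 7 µM, or SP2509 and UNC0642 together. SP2509 inhibits the histone demethylase LSD1, encoded by KDM1A, and UNC0642 inhibits the histone methyltransferase G9a, encoded by EHMT2. Inhibitor treatment lasted 2 days, and the labels give no time for vehicle. The labels give no separate dose for each inhibitor within the combination. In the knockdown table, Kyse510 cells carried a doxycycline (Dox)-inducible shRNA against LSD1 (shLSD1) or against G9a (shG9a), had been selected with puromycin for 14 days, and were collected without Dox or after 2 days with Dox. The control of each knockdown was the same line without Dox, 1 shRNA line stands for each target, and no line with a non-targeting shRNA was analysed here, so the shRNA and Dox itself cannot be told apart.

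In cells, serine is built from a glycolytic intermediate by PHGDH, PSAT1 and PSPH, and passes a carbon unit to folate in mitochondria through SHMT2, MTHFD2 and ALDH1L2. ASNS amidates aspartate to asparagine, CBS and CTH carry homocysteine through cystathionine to cysteine, and PYCR1 makes proline in mitochondria. Many of these genes are known targets of ATF4, a transcription factor of the amino acid and endoplasmic reticulum (ER) stress responses, which binds C/EBP-ATF response elements (CARE) in their regulatory regions.

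The depth estimated from the FPKM values was 15662035 to 17889466 reads per library. KDM1A was at 26.0 FPKM without and 6.29 FPKM with Dox in the shLSD1 line, and EHMT2 at 7.85 FPKM without and 4.76 FPKM with Dox in the shG9a line, so both targeted transcripts were lower in their induced libraries. Of 9 squamous epithelium markers, 7 to 9 were at 1 FPKM or more in every library, and their sum moved with the treatments. It was 945 FPKM in vehicle, 4742 FPKM with SP2509, 1271 FPKM with UNC0642 and 872 FPKM with both. Without and with Dox it was 2074 and 489.9 FPKM for shLSD1, and 1919 and 632 FPKM for shG9a. Single markers did not all follow the sum. Log2 ratios of FPKM + 1 were above 0 for 5 of 9 markers and below 0 for 4 in the shG9a line. There SOX2 was at 2.51 and KRT17 at -3.33. Of the 8 markers that reached 1 FPKM, 3 were above 0 and 5 below with UNC0642, and 6 above and 2 below with SP2509. SOX2 was at -3.88 with SP2509. With both inhibitors 3 of 8 were above 0 and 5 below, and in the shLSD1 line 2 of 7 were above and 5 below. Of 9 markers of fibroblasts, leukocytes and endothelium, 2 or 3 were at 1 FPKM or more, with CDH5 and COL1A1 the ones above 1 FPKM in every library, and the list summed to 6.53 to 19.4 FPKM. CDH5 was at 3.28 FPKM in vehicle and 11.8 FPKM with both inhibitors, and at 5.21 FPKM without and 14.0 FPKM with Dox in the shLSD1 line, where PECAM1, another endothelial marker, was at 0.0221 FPKM or less. VWF, also an endothelial marker, reached 1 FPKM with Dox in the shG9a line and was higher there, at a log2 ratio of 0.81. The part of either marker list in the results was not tested. The leukocyte markers PTPRC and CD68 were at or near 0 FPKM in every library. In bulk RNA, fewer cells that express a gene and less RNA per cell cannot be told apart.

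RefSeq promoter sequences (GRCh38.p14, 250 bases before to 50 bases after a start) matched 6 of the 10 genes, with 9 promoters in all: PHGDH, PSAT1, MTHFD2, ASNS, CTH and CBS. The CARE core TGATGNAA (or its reverse complement TTNCATCA) was in 1270 of 35116 promoters of this length (3.62%) and in 1 of the 9, an ASNS promoter at chr7:97872359-97872658 on the minus strand, where TGATGAAA began at position -68 from the start. The E-box CACGTG was in 7.26% of all promoters and in 0 of the 9. These 2 are shown 5′ to 3′ because ASNS carries the only CARE match among them and PSAT1 (chr9:78296875-78297174, plus strand) had the largest fold change of the 10 genes with SP2509, with the CARE match in capitals.
ASNS: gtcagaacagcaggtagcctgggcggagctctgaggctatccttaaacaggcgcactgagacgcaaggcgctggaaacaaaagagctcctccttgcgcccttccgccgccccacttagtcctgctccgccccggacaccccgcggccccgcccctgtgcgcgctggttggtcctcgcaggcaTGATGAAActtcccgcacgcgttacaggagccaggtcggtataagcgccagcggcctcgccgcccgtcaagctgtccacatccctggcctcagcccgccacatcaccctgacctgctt
PSAT1: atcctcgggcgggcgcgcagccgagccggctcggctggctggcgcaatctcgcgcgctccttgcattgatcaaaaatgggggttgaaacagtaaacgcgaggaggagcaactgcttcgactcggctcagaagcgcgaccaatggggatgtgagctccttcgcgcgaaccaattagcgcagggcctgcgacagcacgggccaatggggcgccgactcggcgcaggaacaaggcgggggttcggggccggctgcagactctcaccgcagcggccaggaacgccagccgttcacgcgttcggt
The PSAT1 window held neither motif, which says only that these letters are absent from it. GC content was 65.3% in the ASNS window and 66.0% in the PSAT1 window, against a median of 58.7% over all promoters.

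All 10 genes were called lower with either inhibitor alone, 7 of the 9 that could be called were lower in the shG9a line under Dox, and 4 of 9 were higher in the shLSD1 line under Dox. A gene was called higher or lower when its ratio of FPKM + 1 between treated and control library was at least 1.3 in either direction and it reached 1 FPKM in at least 1 of the 2 libraries. There is 1 library per condition, so no test was possible and a call carries no replicate check. With SP2509, 10 of 10 genes were called lower, when 39.9% of all 13342 genes were lower and 21.0% higher. With UNC0642, 10 of 10 were called lower, when 16.9% of 13244 genes were lower and 18.2% higher. With both inhibitors, 8 of 10 were called lower and 0 higher, when 31.7% of 13907 genes were lower and 31.4% higher. In the shLSD1 line, 4 of the 9 genes that reached 1 FPKM were called higher and 0 lower, when 24.8% of 12970 genes were higher and 12.3% lower. In the shG9a line, 7 of the 9 that reached 1 FPKM were called lower and 0 higher, when 17.6% of 13080 genes were lower and 32.9% higher. ASNS did not reach 1 FPKM in either line.

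The median log2 ratio of FPKM + 1 over the 10 genes was -1.42 with SP2509, -1.22 with UNC0642 and -0.70 with both, against medians over all genes of -0.21, -0.01 and -0.02. Over 9 genes it was 0.33 in the shLSD1 line and -1.14 in the shG9a line, against 0.13 and 0.18 over all genes. At a ratio of 2, 7 of 10 genes were lower with SP2509 (13.0% of all genes), 7 of 10 with UNC0642 (3.12%), 2 of 10 with both (9.57%) and 6 of 9 in the shG9a line (6.02%). CTH alone was higher at that ratio in the shLSD1 line, 1 of 9 genes (3.36%). The background depended on scaling. With TMM scaling, 33.0% of all genes were higher and 25.9% lower with SP2509, 15.1% and 18.7% in the shLSD1 line, and 17.0% and 27.4% in the shG9a line. The 10 genes then counted 10 lower with SP2509, 3 higher in the shLSD1 line and 7 lower in the shG9a line. The 3 inhibitor comparisons share the vehicle library.

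**Figure D1:**
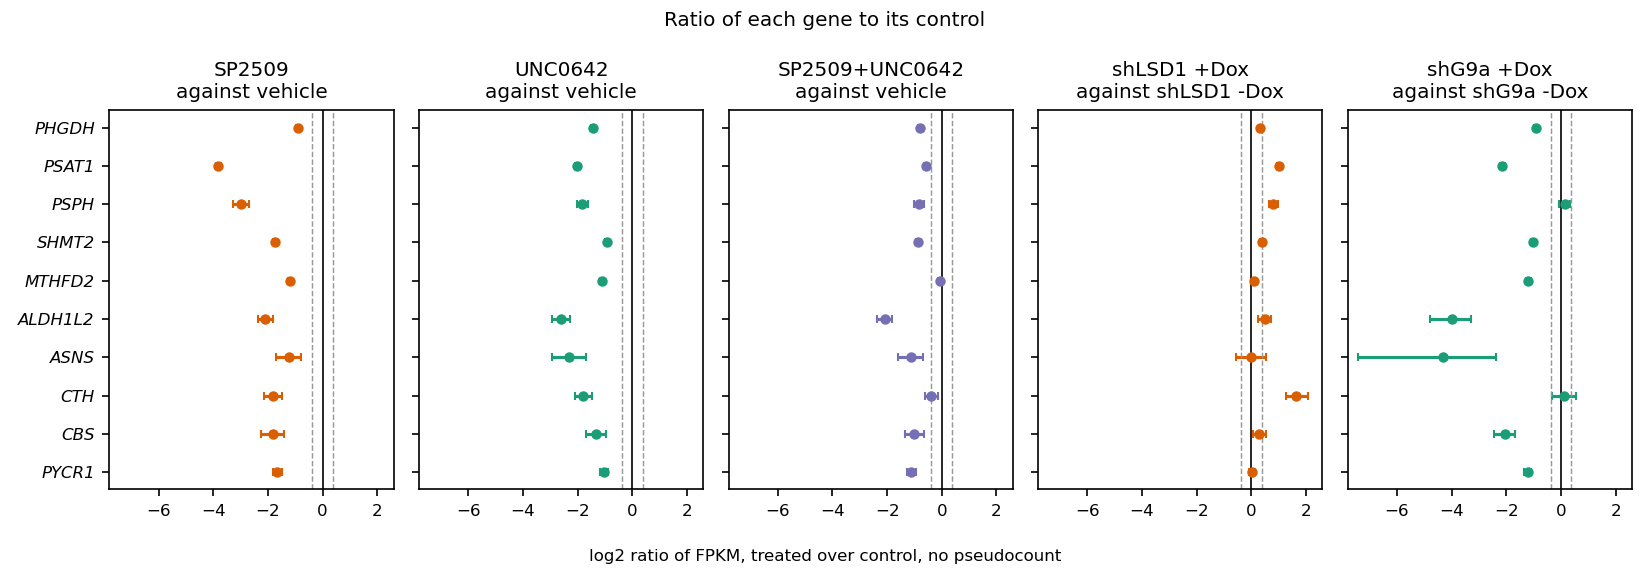
Log2 ratio of FPKM without pseudocount (x axis) of the 10 genes (y axis) in the 5 comparisons, 1 panel each; points are the ratio of 1 treated to 1 control library, bars the 95% counting interval, and dashed lines a ratio of 1.3 in either direction. All 10 intervals lie below 0 in each of the 3 inhibitor panels, 8 of 10 lie above 0 in the shLSD1 panel and 8 of 10 below 0 in the shG9a panel. Bars cover counting error only, so an interval clear of 0 is not a call. The share of all genes with intervals clear of 0 was not counted.

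Of the serine synthesis enzymes, PSAT1, the transaminase of the second step, had the largest fold change with each single inhibitor and in both lines, and the smallest with both inhibitors. PSAT1 (ENSG00000135069, chr9:78297143-78330093) was at 327 FPKM in vehicle, 23.1 FPKM with SP2509, 80.1 FPKM with UNC0642 and 217 FPKM with both. It was at 108 FPKM without and 215 FPKM with Dox in the shLSD1 line, and at 121 FPKM without and 27.4 FPKM with Dox in the shG9a line. SP2509 and induced shG9a thus gave the lowest levels, and the combination lay between vehicle and both single inhibitors. In FPKM without pseudocount, PSAT1 was 14.1-fold lower with SP2509 (95% counting interval 13.2 to 15.1), 4.08-fold lower with UNC0642 (3.92 to 4.24) and 1.51-fold lower with both (1.47 to 1.55). It was 2.00-fold higher in the shLSD1 line (1.92 to 2.07) and 4.43-fold lower in the shG9a line (4.14 to 4.75). Of 13342 genes, 6 had a lower log2 ratio than PSAT1 with SP2509. Counting intervals here and below come from estimated reads and cover counting error only.

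PHGDH, the dehydrogenase of the first and committed step, differed less than PSAT1 in every comparison but that of the combination. PHGDH (ENSG00000092621, chr1:119648411-119744226) was at 31.6 FPKM in vehicle, 16.9 FPKM with SP2509, 11.8 FPKM with UNC0642 and 18.0 FPKM with both. It was at 28.9 FPKM without and 36.3 FPKM with Dox in the shLSD1 line, and at 27.9 FPKM without and 14.8 FPKM with Dox in the shG9a line. The 3 control libraries were close to each other, from 27.9 to 31.6 FPKM, and every inhibitor library and induced shG9a lay below them. PHGDH was 1.87-fold lower with SP2509, 2.68-fold with UNC0642, 1.76-fold with both and 1.89-fold in the shG9a line, all without pseudocount. Its log2 ratio of 0.32 in the shLSD1 line did not reach the call.

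PSPH, the phosphatase of the last step, was lower with UNC0642 but was not called in the shG9a line. PSPH (ENSG00000146733, chr7:56011051-56051604) was at 18.0 FPKM in vehicle, 2.30 FPKM with SP2509, 5.10 FPKM with UNC0642 and 10.1 FPKM with both. It was at 8.69 FPKM without and 15.2 FPKM with Dox in the shLSD1 line, and at 8.19 FPKM without and 9.03 FPKM with Dox in the shG9a line. PSPH was 7.84-fold lower with SP2509 (6.43 to 9.63), 3.53-fold lower with UNC0642 (3.06 to 4.09) and 1.75-fold higher in the shLSD1 line (1.55 to 1.98). In the shG9a line the ratio was 1.10, with an interval of 0.958 to 1.27 that holds 1. PSPHP1, a short PSPH pseudogene listed at 6.86 to 23.3 FPKM, was at 10.8 FPKM in vehicle and 13.6 FPKM with SP2509, a ratio that was not called, and was higher with UNC0642, at 17.8 FPKM. It was lower under Dox in both lines, at 8.75 FPKM against 23.3 FPKM for shLSD1, where PSPH was higher, and at 6.86 FPKM against 18.1 FPKM for shG9a. How reads were assigned between the copies is not given in the sources used here.

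**Figure D2:**
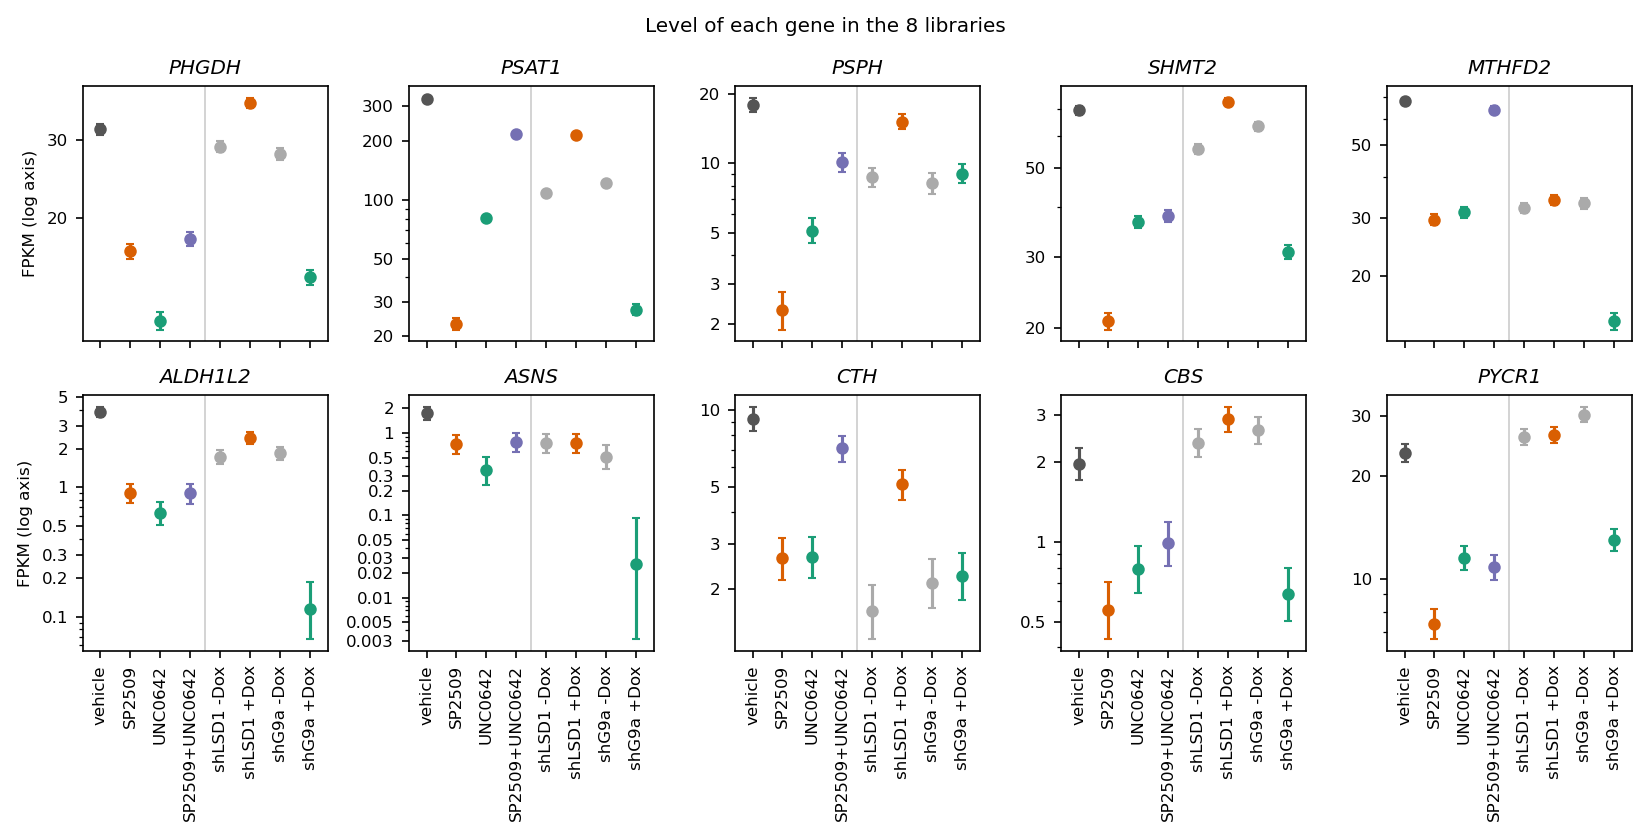
FPKM on a log axis (y) of the 10 genes, 1 panel each, in the 8 libraries (x); points are single libraries, bars the 95% counting interval, and the grey line separates the inhibitor table from the knockdown table. PSAT1 ranges from 23.1 to 327 FPKM, and every gene is lower with SP2509 and with UNC0642 than in vehicle.

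The mitochondrial folate enzymes were lower together with either inhibitor and in the shG9a line. SHMT2 (ENSG00000182199, chr12:57229327-57234935), which splits serine into glycine and a folate-bound carbon, was at 69.5 FPKM in vehicle, 20.8 FPKM with SP2509, 36.7 FPKM with UNC0642 and 37.96 FPKM with both. It was at 55.7 FPKM without and 72.9 FPKM with Dox in the shLSD1 line, and at 63.4 FPKM without and 31.0 FPKM with Dox in the shG9a line. SHMT2 was 3.34-fold lower with SP2509, 1.89-fold with UNC0642, 1.83-fold with both and 2.05-fold in the shG9a line. By GENCODE 44, 7.67% of SHMT2 exon bases lie opposite AC137834.2, and 11.6% of those of MTHFD2 opposite SLC4A5, and whether counting used strand is not given in the sources used here. The SHMT2 ratio in the shLSD1 line, a log2 of 0.38, sat at the edge of the call and was 0.27 when ratios were centred on the median of genes at 5 FPKM or more.

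MTHFD2 (ENSG00000065911, chr2:74198562-74217565), the mitochondrial dehydrogenase and cyclohydrolase that oxidises the carbon unit, was at 67.7 FPKM in vehicle, 29.6 FPKM with SP2509, 31.2 FPKM with UNC0642 and 64.0 FPKM with both. It was at 32.2 FPKM without and 34.0 FPKM with Dox in the shLSD1 line, and at 33.2 FPKM without and 14.5 FPKM with Dox in the shG9a line. The combination was therefore near vehicle, with a log2 ratio of -0.08, while each single inhibitor was lower, 2.29-fold for SP2509 and 2.17-fold for UNC0642. In the shG9a line MTHFD2 was 2.29-fold lower (2.14 to 2.45), and in the shLSD1 line its log2 ratio of 0.08 was not called and was -0.03 after centring.

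ALDH1L2 (ENSG00000136010, chr12:105019784-105084577), the mitochondrial formyltetrahydrofolate dehydrogenase, was low throughout, at 3.84 FPKM in vehicle, 0.898 FPKM with SP2509, 0.637 FPKM with UNC0642 and 0.898 FPKM with both. It was at 1.72 FPKM without and 2.42 FPKM with Dox in the shLSD1 line, and at 1.83 FPKM without and 0.115 FPKM with Dox in the shG9a line. Induced shG9a held 17 reads against 258 without Dox. ALDH1L2 was 15.9-fold lower there without pseudocount (9.73 to 27.7), a change that the FPKM + 1 scale gives as a log2 ratio of -1.35. It was 4.27-fold lower with SP2509, 6.02-fold with UNC0642 and 4.27-fold with both.

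ASNS (ENSG00000070669, chr7:97852118-97872542), asparagine synthetase, was near the limit of detection. It was at 1.73 FPKM in vehicle (121 reads), 0.731 FPKM with SP2509 (58 reads), 0.351 FPKM with UNC0642 (28 reads) and 0.785 FPKM with both (59 reads). In the shLSD1 line it was at 0.759 FPKM without and 0.756 FPKM with Dox, and in the shG9a line at 0.516 FPKM without (38 reads) and 0.0259 FPKM with Dox (2 reads). Vehicle held the highest level and induced shG9a the lowest. The ratio of induced to uninduced shG9a was 0.0503, with an interval of 0.00587 to 0.195. With UNC0642 ASNS was 4.94-fold lower (3.25 to 7.74) and with SP2509 2.37-fold lower (1.72 to 3.30). By GENCODE 44, 49.3% of ASNS exon bases are shared with AC079781.5, a gene on the same strand that was listed at 0 to 10 reads, so the ASNS level is uncertain.

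The transsulfuration enzymes differed from each other. CBS (ENSG00000160200, chr21:43053191-43076943), which condenses homocysteine with serine, was at 1.98 FPKM in vehicle, 0.555 FPKM with SP2509, 0.791 FPKM with UNC0642 and 0.986 FPKM with both. It was at 2.37 FPKM without and 2.90 FPKM with Dox in the shLSD1 line, and at 2.64 FPKM without and 0.638 FPKM with Dox in the shG9a line. CBS was 3.56-fold lower with SP2509 (2.69 to 4.76), 2.50-fold with UNC0642 (1.95 to 3.22), 2.00-fold with both (1.59 to 2.54) and 4.13-fold in the shG9a line (3.20 to 5.40). CBSL, a near-identical copy listed beside it, held 3 to 45 reads per library, so the split of reads between the copies is uncertain. Adding the FPKM of CBSL to that of CBS changed no call.

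CTH (ENSG00000116761, chr1:70411218-70439851), cystathionine gamma-lyase, was at 9.23 FPKM in vehicle, 2.63 FPKM with SP2509, 2.66 FPKM with UNC0642 and 7.07 FPKM with both. It was at 1.63 FPKM without and 5.11 FPKM with Dox in the shLSD1 line, and at 2.10 FPKM without and 2.25 FPKM with Dox in the shG9a line. CTH had the largest ratio of the 10 genes in the shLSD1 line, 3.13-fold higher (2.38 to 4.16), and was not called in the shG9a line, where the ratio was 1.07 with an interval of 0.788 to 1.45. It was 3.51-fold lower with SP2509 and 3.47-fold lower with UNC0642, and with both its log2 ratio of -0.34 did not reach the call (-0.38, past it, with a pseudocount of 0.1).

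PYCR1 (ENSG00000183010, chr17:81932384-81942412), the last enzyme of proline synthesis, was at 23.3 FPKM in vehicle, 7.38 FPKM with SP2509, 11.5 FPKM with UNC0642 and 10.8 FPKM with both. It was at 26.0 FPKM without and 26.5 FPKM with Dox in the shLSD1 line, and at 30.3 FPKM without and 13.0 FPKM with Dox in the shG9a line. PYCR1 was 3.16-fold lower with SP2509, 2.02-fold with UNC0642, 2.16-fold with both and 2.33-fold in the shG9a line. The ratio of 1.02 (0.943 to 1.10) in the shLSD1 line was not called. By GENCODE 44, 14.1% of its exon bases are shared with MYADML2 on the same strand, which held at most 4 reads in the knockdown table.

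PSAT1 and SHMT2 were called higher in the shLSD1 line and lower in the shG9a line, SHMT2 only without centring. These were 2 of the 9 genes that reached 1 FPKM in both lines, when 1.78% of 12325 genes were called in these directions. Of the 7 genes lower in the shG9a line, 5 were not called in the shLSD1 line, when 48.3% of all 2174 genes lower in the shG9a line were not. The difference between the lines was not tested. PSPH and CTH were called in the shLSD1 line and not in the shG9a line.

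The levels of the 3 controls differed for several of the 10 genes, although the tables were made separately and so are set side by side as levels only. Vehicle lay above both uninduced lines for 8 of the 10 genes, as it did for 58.3% of 11459 genes at 1 FPKM or more in vehicle, and below both for CBS and PYCR1. For PSAT1, PSPH, MTHFD2, ALDH1L2, ASNS and CTH, 6 of the 10, vehicle was over 2-fold above both lines, when 14.3% of those genes were. CTH was at 9.23 FPKM in vehicle and at 1.63 and 2.10 FPKM in the uninduced lines. All 3 inhibitor comparisons rest on the vehicle library, and its part in their ratios was not tested.

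The level with both inhibitors lay above the level with each single inhibitor for 9 of the 10 genes, for some within counting error. PYCR1 lay between them. The share of all genes placed this way was not counted, so no background stands beside that count. For ALDH1L2 the combination and SP2509 alone were both at 0.898 FPKM. Without pseudocount, the ratio to UNC0642 alone was 1.03 for SHMT2 (0.984 to 1.09) and 1.25 for CBS (0.942 to 1.65). The ASNS ratio to SP2509 alone was 1.07 (0.734 to 1.57). By the call, only PSAT1, PSPH, CTH and MTHFD2 were higher with both inhibitors than with each single inhibitor. The sum of the log2 ratios of SP2509 and UNC0642 was subtracted from the log2 ratio of the combination. This departure was above 0 for 10 of 10 genes, from 1.06 for ASNS to 5.19 for PSAT1, with a median of 1.65, when the median over 14801 genes was 0.19 and 59.4% of them were above 0. PSAT1 had a summed ratio of -5.78 and an observed ratio of -0.59. After PSAT1 came PSPH at 3.39, CTH at 2.63 and MTHFD2 at 2.18. The vehicle library enters all 3 ratios, so a high level there adds to the departure.

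**Figure D3:**
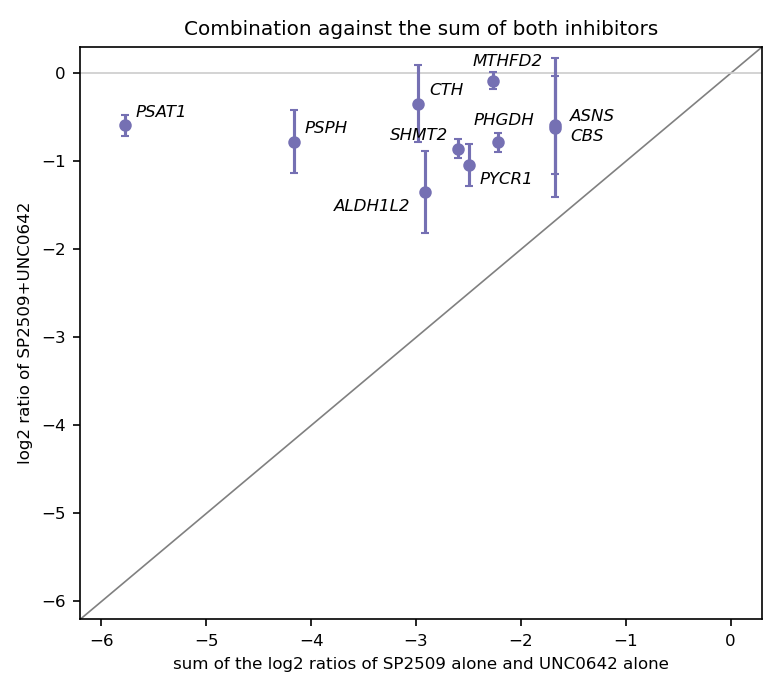
Log2 ratio of FPKM + 1 of the combination to vehicle (y axis) against the sum of the log2 ratios of SP2509 alone and UNC0642 alone (x axis) for the 10 genes; the diagonal marks equal values and bars are 95% counting intervals of the departure without pseudocount. All 10 points lie above the diagonal, PSAT1 farthest, at a sum of -5.78 and an observed -0.59.

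A comparison without the vehicle library was added after the data had been seen. Against SP2509 alone, the combination was higher for 6 of the 7 genes that reached 1 FPKM and lower for 0, when 41.8% of 13658 genes were higher and 24.8% lower. PSAT1 was 9.37-fold higher (8.74 to 10.04), PSPH 4.40-fold, CTH 2.69-fold, MTHFD2 2.16-fold, SHMT2 1.82-fold and PYCR1 1.46-fold, and PHGDH at a log2 ratio of 0.09 was not called. Against UNC0642 alone it was higher for 5 of 7 genes and lower for 0, when 27.7% of 13637 genes were higher and 27.1% lower. PSAT1 was 2.70-fold higher (2.59 to 2.82), CTH 2.65-fold, MTHFD2 2.05-fold, PSPH 1.98-fold and PHGDH 1.52-fold, while SHMT2 at a log2 ratio of 0.05 and PYCR1 at -0.09 were not called. The counting interval of the ratio lay above 1 for 8 of the 10 genes against SP2509 and held 1 for ALDH1L2 and ASNS, and lay above 1 for 7 against UNC0642. The share of all genes with an interval above 1 was not counted. The median log2 ratio over all genes was 0.20 against SP2509 and -0.01 against UNC0642. Both comparisons share the combination library.

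The other genes of these pathways were counted by the same call. With UNC0642, 0 of 5 other serine and glycine genes and 0 of 18 other folate genes that reached 1 FPKM were called lower. The same count was 3 of 14 for methionine, transsulfuration and glutathione, 4 of 11 for asparagine, aspartate and glutamine, and 1 of 8 for proline. Their medians ranged from -0.23 to -0.00 log2, against -1.22 for the 10 genes. With SP2509 the counts lower were 4 of 5, 13 of 19, 9 of 14, 7 of 11 and 4 of 8, with medians from -0.71 to -0.38. With both inhibitors they were 4 of 5, 8 of 19, 9 of 14, 6 of 11 and 4 of 8. In the shG9a line 0 of 6 serine and glycine genes and 1 of 18 folate genes were lower, while 3 and 8 were higher. There the other lists held 5 of 14, 4 of 11 and 2 of 8 lower, and 6, 3 and 2 higher. With Dox in the shLSD1 line, 1 of 6, 7 of 18, 3 of 14, 6 of 10 and 2 of 8 were higher, with 1 lower, the proline catabolic gene PRODH at a log2 ratio of -0.92.

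**Figure D4:**
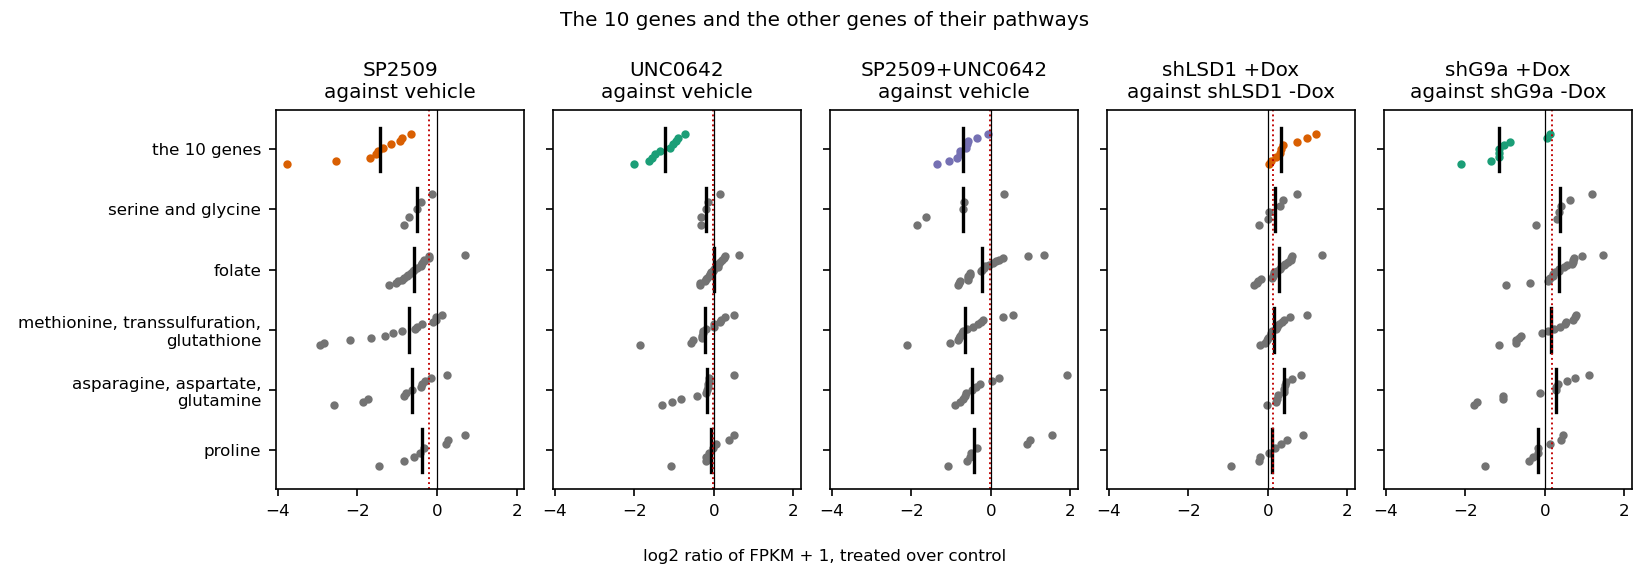
Log2 ratio of FPKM + 1 (x axis) of the 10 genes (coloured) and of the other genes of 5 pathway lists (grey), each point 1 gene at 1 FPKM or more, in the 5 comparisons; black bars are list medians and the red dotted line the median of all genes. With UNC0642 the 10 genes have a median of -1.22 and the other lists medians of -0.23 to -0.00.

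In the shG9a line the cytosolic SHMT1 and MTHFD1 were called higher, when the mitochondrial SHMT2 and MTHFD2 were called lower. SHMT1, the cytosolic serine hydroxymethyltransferase, was at 4.02 FPKM without and 6.75 FPKM with Dox, a log2 ratio of 0.63, when that of SHMT2 was -1.01. MTHFD1, the cytosolic trifunctional folate enzyme, was at 10.2 FPKM without and 15.6 FPKM with Dox, a log2 ratio of 0.57, when that of MTHFD2 was -1.14. The MTHFD1 call was lost with TMM scaling (0.34), and that of SHMT1 was not. MTHFD1L, the mitochondrial formate-releasing enzyme, was lower, at a log2 ratio of -0.96. TYMS, thymidylate synthase, was higher, at 0.71, and the glycine cleavage gene GLDC was higher at 1.18. GLDC was also higher in the shLSD1 line (0.73), and was lower with SP2509 (-0.84) and with both inhibitors (-1.86). With UNC0642 the ratios of SHMT1, MTHFD1, MTHFD1L and TYMS, -0.16, -0.09, -0.19 and 0.25, were not called. With both inhibitors SHMT1 (-0.71), MTHFD1 (-0.57) and MTHFD1L (-0.58) were lower, as was SHMT2 (-0.86), and TYMS (-0.14) and MTHFD2 (-0.08) were not called. With SP2509 SHMT1 at -0.51 and TYMS at -0.57 were lower, and MTHFD1 at -0.21 and MTHFD1L at -0.38 were not called. With TMM scaling SHMT1 and TYMS were at -0.23 and -0.30 there and were not called. ALDH1L1, the cytosolic counterpart of ALDH1L2, was at 0.311 to 1.38 FPKM and was called in none of the 5 comparisons, although after centring its ratio of -0.33 in the shLSD1 line was -0.44 and that of -0.36 in the shG9a line was -0.51, both past the fold.

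In the neighbouring pathways GOT1, GPT2 and GCLC were lower with either inhibitor and in the shG9a line. GOT1, the cytosolic aspartate aminotransferase, was at 34.3 FPKM in vehicle, 8.76 FPKM with SP2509, 16.1 FPKM with UNC0642 and 20.9 FPKM with both, and at 19.6 FPKM without and 8.93 FPKM with Dox in the shG9a line. GPT2, the mitochondrial alanine aminotransferase, was at 26.4 FPKM in vehicle, 3.53 FPKM with SP2509, 10.03 FPKM with UNC0642 and 27.0 FPKM with both, and at 13.9 FPKM without and 3.61 FPKM with Dox in the shG9a line. Its combination library was near vehicle, as for MTHFD2. GCLC, the catalytic subunit of the first enzyme of glutathione synthesis, was lower with SP2509 (-2.83), with UNC0642 (-1.85), with both (-2.11) and in the shG9a line (-1.15). GCLM, its modifier subunit, was lower with SP2509 (-2.18) and in the shG9a line (-0.59) but higher with UNC0642 (0.51) and with both (0.57). ASS1, which joins citrulline and aspartate, was lower with SP2509 (-0.79), UNC0642 (-0.83) and both (-0.78) and in the shG9a line, at 329 FPKM without and 95.1 FPKM with Dox.

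Other genes took different courses. MAT2A, which makes the methyl donor S-adenosylmethionine, was lower with SP2509 (-2.95), not called with UNC0642 (0.28) or both (-0.33), and higher in the shLSD1 (0.98) and shG9a (0.72) lines. AHCY, the next enzyme of the methionine cycle, was called in none of the 5 comparisons. MTR, methionine synthase, was lower with SP2509 (-1.10) and with both (-0.78), and higher in the shG9a line (0.39), a call lost after centring (0.24). GLUL, glutamine synthetase, was higher in the shLSD1 (0.62) and shG9a (0.75) lines. Of the proline genes, OAT was higher with SP2509 (0.71), with UNC0642 (0.50), with both (1.53) and in the shLSD1 line (0.49). ARG2 was higher with both inhibitors (0.98) and lower in the shG9a line (-1.49), and ALDH18A1, which precedes PYCR1, was lower with both inhibitors (-0.49) and in the shG9a line (-0.40). FOLR1, a folate receptor, was at 0.376 FPKM without and 2.56 FPKM with Dox in the shLSD1 line, and was also higher with SP2509 (0.71), with both (1.34) and in the shG9a line (0.93).

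The 16 genes of the regulator list did not all move together. Of them, 9 were called lower with SP2509, 10 with UNC0642, 8 with both and 9 in the shG9a line, when 1, 0, 3 and 3 were higher. In the shLSD1 line 6 were higher and 2 lower. CHAC1, TRIB3 and SESN2 were lower with either inhibitor and in the shG9a line. With both inhibitors CHAC1 was higher (0.84), and TRIB3 (-1.91) and SESN2 (-0.54) were lower. ATF4 mRNA was not called with SP2509 (-0.28), was lower with UNC0642 (-0.45) and in the shG9a line (-0.83), and was higher with both (0.50). CEBPG, a partner of ATF4 at CARE sites, was at 25.2 FPKM in vehicle, 7.81 FPKM with SP2509, 11.3 FPKM with UNC0642 and 24.3 FPKM with both. It was at 20.3 FPKM without and 20.7 FPKM with Dox in the shLSD1 line, and at 20.7 FPKM without and 8.02 FPKM with Dox in the shG9a line. CEBPG was thus lower in the same 3 libraries as MTHFD2 and near its control in the same 2. DDIT3, which encodes CHOP, was lower in all 5 comparisons, by log2 ratios of -0.82 in the shLSD1 line to -3.72 in the shG9a line. MYC was at 137 FPKM in vehicle and 697 FPKM with SP2509, was higher with both (0.41, at the edge of the call after centring, 0.38), and was lower in both induced lines. NFE2L2, the antioxidant regulator NRF2, was lower with UNC0642 (-0.65) and with both (-0.81) and not called elsewhere, although its SP2509 ratio of 0.31 was 0.41 after centring.

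Among genes at 5 FPKM or more in every library, those outside the 10 whose 5 log2 ratios were nearest to the mean of the 10 were GOT1, DERL2, GARS, YARS and UBE2J1, at root mean square differences of 0.26, 0.28, 0.28, 0.29 and 0.31. DERL2 and UBE2J1 act in ER-associated degradation, and GARS and YARS encode glycyl- and tyrosyl-tRNA synthetases. The likeness is over 5 ratios, of which 3 share the vehicle library, and is a description. Among the 10, SHMT2 and PYCR1 were the most alike, at 0.21.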

How the data were processed

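RNA from 8 Kyse510 libraries, 1 per condition, was sequenced, and the authors deposited 2 tables of FPKM per Ensembl gene (GRCh38.87 per the study's methods). The aligner, counter and use of strand are not given in the sources used here. FPKM were used as deposited. Ratios are log2 of FPKM + 1, treated over its own control, and a call needs a ratio of 1.3 and 1 FPKM in at least 1 library. With 1 library per condition no test was run. Library totals and reads per gene were estimated from whole-read steps in the FPKM of one-exon genes (99.6% to 99.8% of each total recovered in genes) and gave exact binomial 95% intervals. Gene length differed between the tables for 4741 genes but for none of the 10. Scripts (Python 3.11.15, NumPy 2.4.6, pandas 2.3.3, SciPy 1.17.1) were tested on simulated data. Promoters came from RefSeq (GRCh38.p14) and exon overlaps from GENCODE 44. The 10 genes, the lists and the motifs were chosen with earlier results of these data known. Named genes were the 10 and their copies, preset genes of each list, its 2 largest movers, and the 5 most alike outside the lists. CHAC1, TRIB3 and SESN2 were named after the data had been seen. Alternatives changed the pseudocount, filter, fold, scaling and control. Some genes of the lists are not reported here by name.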

Additional observations from a re-analysis of the deposited data

Results flagged for a closer look

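PSAT1 and SHMT2 are listed here because Dox moved them past the fold of 1.3 in opposite directions in the 2 shRNA lines. PSAT1 had log2 ratios of 0.99 in the shLSD1 line and -2.11 in the shG9a line, a difference of 3.10. SHMT2 had 0.38 and -1.01, a difference of 1.39, and its call in the shLSD1 line was lost after centring (0.27). Of all 12325 genes that reached 1 FPKM in both lines, 1.78% were called in these directions. With 1 library per condition neither difference was tested.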

How the results depend on the processing

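No paired analysis was possible because each condition has 1 library. Over 225 ratios of the 10 genes under alternatives, 208 kept their direction and their side of the fold, 7 crossed the fold and 10, all from ratios that were not called, crossed 0. The median of the 10 genes with SP2509 became -1.70 with a pseudocount of 0.1, -1.77 with 0.01 and -1.15 with TMM scaling, and with UNC0642 -1.58 and -1.60 with these pseudocounts. With both inhibitors, 5 genes were called lower with a filter of 5 FPKM, which leaves out ALDH1L2, ASNS and CBS. There, 9 were called lower with a pseudocount of 0.1 or 0.01, and 2 at a fold of 2. In the shLSD1 line, 1 gene was higher at a fold of 2 and the median was 0.18 with TMM scaling, and in the shG9a line the median was -1.37 with TMM scaling. The median departure from the sum became 2.17 with a pseudocount of 0.1. Of the 5 genes nearest the 10, 0 were shared when Pearson correlation was used in place of the root mean square difference. SHMT2 lost its shLSD1 call with centring (0.27), TMM scaling (0.23) and the mean of both uninduced lines as control (0.29). The medians subtracted in centring were -0.09 for SP2509, 0.11 for shLSD1 and 0.14 for shG9a, so centred ratios are higher for SP2509 and lower in both lines. CBS, ASNS and ALDH1L2 are limited by low reads. The causes of these shifts were not tested.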
